A study of Mus musculus with 62 samples.

Results

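The 10 genes described here set how skeletal muscle grows and wastes: *Trim63*, *Fbxo32*, *Fbxo30*, *Foxo1*, *Foxo3*, *Klf15*, *Mstn*, *Acvr2b*, *Fst* and *Igf1*. They are 10 of the 19220 genes named in 16 lists of ChIP-seq peaks, and their regions were taken as the peaks whose deposited gene name, that of the nearest transcription start site (TSS), was 1 of the 10. This gave 720 of 596282 peaks. Of these, 376 of 297760 were peaks of H3K27ac (acetylated lysine 27 of histone H3, found at active enhancers and promoters), and 344 were peaks of H3K4me2 (dimethylated lysine 4, found at enhancers and promoters, active or poised). A further 8 of 5334 regions came from 4 lists of differential H3K27ac. Assignment to the nearest TSS does not show which gene a distant region acts on.

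Both marks were profiled in 8 groups of male C57BL/6 mice (so labelled, and C57BL/6J in the study's methods for the purchased mice) with 2 replicates each. The untreated muscles of wild-type, sedentary mice were extensor digitorum longus (EDL), quadriceps (Quad), soleus (Sol) and diaphragm (Dia), where each EDL, Sol or Dia sample pooled muscles of 3 animals and each quadriceps sample came from 1 animal. In quadriceps, wild-type mice with free access to a running wheel for 4 weeks from 8 weeks of age (Ex) were compared with caged sedentary wild-type mice (Sed), and mice expressing *Pgc1a* from a muscle creatine kinase promoter (mTg, genotype PGC1a Tg(+), sedentary) with sedentary wild-type littermates (Wt). Ages of mTg and Wt mice were not given in the sources used here. The wheel-running muscles were taken within hours of the last bout. Whole muscle was used, so fewer nuclei of a cell type and less signal per nucleus cannot be told apart.

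TRIM63 (MuRF1), FBXO32 (atrogin-1) and FBXO30 (MUSA1) are ubiquitin ligases that mark muscle proteins for breakdown by the proteasome. The forkhead factors FOXO1 and FOXO3 drive these ligases and autophagy when AKT signaling is low, and KLF15 is induced by glucocorticoids and promotes amino acid breakdown. Myostatin (MSTN), a secreted inhibitor of muscle growth, signals through the receptor ACVR2B and SMAD factors and is bound and held inactive by follistatin (FST). IGF1 opposes these signals by activating AKT, which keeps FoxO factors out of the nucleus.

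The 32 histone libraries held between 6.41 and 24.2 M tags (median 19.5 M), and levels of replicates correlated across the peaks of their own list with Pearson's r of 0.965 to 0.991. Skeletal muscle markers were present in every group, with 9 of 10 myofiber marker genes carrying an H3K27ac peak in EDL, Quad, Sed, Ex, Wt and mTg and 10 of 10 in Sol and Dia. The missing gene was *Myh7*, the slow myosin. *Ppargc1a*, the gene overexpressed in mTg mice, carried 1 region listed as hyperacetylated in mTg and 0 hypoacetylated.

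Each of the 10 genes had at least 1 peak of each mark in all 8 groups. The FoxO genes carried the most. *Foxo3* had 8 to 16 H3K27ac peaks per list and *Foxo1* had 6 to 13, whereas *Fst* and *Acvr2b* had 2 to 3. Per list, the 10 genes together had 48 H3K27ac peaks in EDL, 54 in Quad, 41 in Sol, 41 in Dia, 39 in Sed, 42 in Ex, 66 in Wt and 45 in mTg. H3K4me2 peaks numbered 46, 58, 36, 38, 43, 37, 60 and 26, in the same order. The lists differed in length, from 33106 (Dia) to 49010 (Wt) H3K27ac peaks and from 27527 (mTg) to 46944 (Wt) H3K4me2 peaks. As a share of its list, the count ran from 0.115% (Sed) to 0.135% (Wt) for H3K27ac. For H3K4me2 it ran from 0.0945% (mTg) to 0.133% (Quad). The peaks of *Trim63*, *Klf15*, *Mstn*, *Fst* and *Acvr2b* all lay within 50 kb of the TSS, whereas 32.3% of *Foxo1* and 53.2% of *Foxo3* H3K27ac peaks did, against 76.8% over all genes. Those of *Foxo1* reached as far as 234 kb from its TSS.

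**Figure D1:**
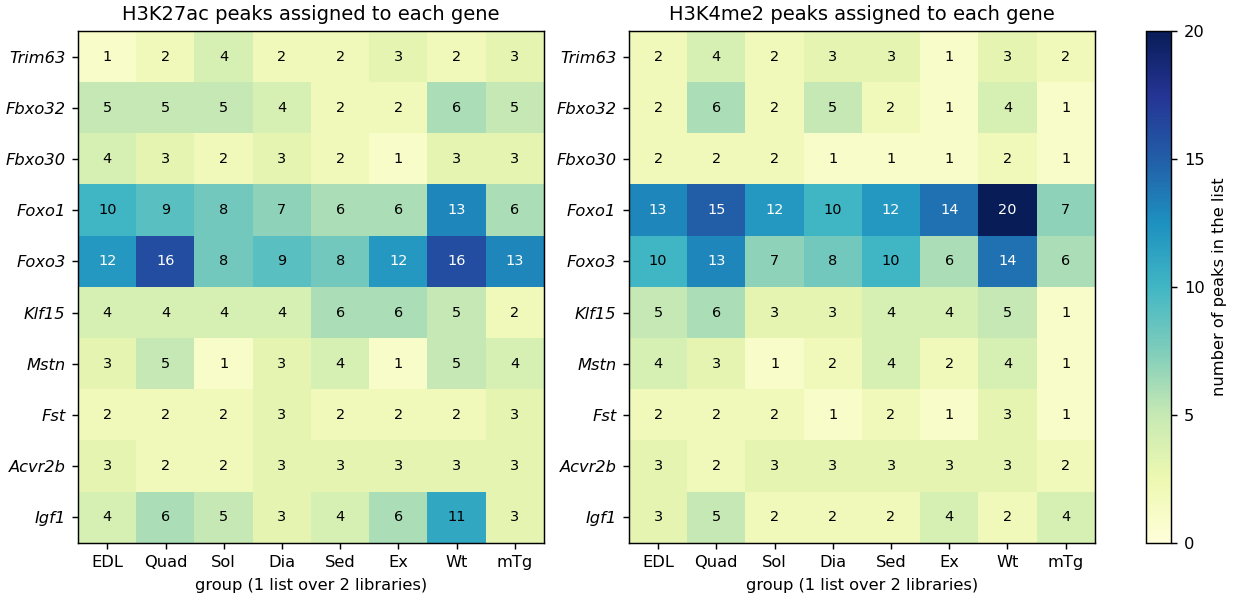
Number of H3K27ac (left) and H3K4me2 (right) peaks assigned to each of the 10 genes (rows) in the list of each group (columns), with the count printed in each cell and shown by color. *Foxo1* and *Foxo3* hold the most peaks, up to 20 in the Wt H3K4me2 list, and *Mstn* has a single H3K27ac peak in Sol and in Ex.

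When overlapping peaks of the 8 lists were joined, the 10 genes had 81 H3K27ac regions. Of these, 20 (24.7%) were called in all 8 groups and 31 (38.3%) in 1 group, against 21.8% and 29.4% of all 63441 joined regions. For H3K4me2, 14 of 87 regions (16.1%) were called in all groups and 29 (33.3%) in 1, against 25.7% and 27.9% of 66355. *Igf1* had 10 of its 16 H3K27ac regions in 1 group alone, whereas all 3 regions of *Acvr2b* and both of *Fst* were seen in more than 1. Absence of a call is not absence of the mark, since lists differed in depth and length.

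Levels below are given on 1 scale. The relative level of a peak is its log2 level per kb of width minus the median, in the same library, over regions found in all 8 lists of that mark (6911 for H3K27ac and 13055 for H3K4me2). A value of 0 is thus a typical shared region, and −1 is 2-fold below it. Lists were normalized separately by the authors, so no test was run between them. The percentile given for a peak ranks its level per kb among the peaks of its list.

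The E3 ligase genes differed in the shape of their acetylation. At *Trim63* the H3K27ac peak over the TSS was a broad domain of 4.63 to 18.4 kb. Its relative levels in both replicates were 0.02 and −0.10 in EDL, 0.17 and −0.05 in Quad, 0.57 and 0.10 in Sol, 0.12 and −0.31 in Dia, 0.30 and −0.29 in Sed, −0.68 and −1.12 in Ex, −0.31 and −0.09 in Wt, and −0.14 and −0.29 in mTg. Both Ex libraries lay below every other library, and the other groups overlapped their neighbours. The width of the domain varied with the group, being 18.4 kb in EDL and 4.63 kb in Sol, where 4 separate peaks were called for the gene, so a level per kb averages over different spans. *Trim63* was also the only 1 of the 10 genes with a peak of MED1, a subunit of the Mediator coactivator complex, within 1 kb of its TSS in all 4 muscles. This held for 59 of 15880 genes (0.372%). The MED1 lists ran from 834 peaks in EDL to 4070 in Sol, and only 260 of these genes had such a peak in EDL. The count in all 4 muscles is therefore limited by the short EDL list.

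The 250 bases upstream of the *Trim63* TSS (RefSeq, mm10/GRCm38.p6, chr4:134314870-134315119, plus strand, 5′ to 3′) are shown because this start site carried the Mediator peaks and the acetylated domain. Capitals mark a match to the FoxO site GTAAACA, on the minus strand and so read here as TGTTTAC, and a match to the E-box CAGCTG bound by myogenic factors.
Trim63 promoter: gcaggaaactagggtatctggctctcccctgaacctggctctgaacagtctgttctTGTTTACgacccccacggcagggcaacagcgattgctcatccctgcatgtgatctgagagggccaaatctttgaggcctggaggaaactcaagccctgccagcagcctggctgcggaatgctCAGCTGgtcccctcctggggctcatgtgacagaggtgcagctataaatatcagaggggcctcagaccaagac
The FoxO match began 194 bases before the TSS and the E-box 72 bases before it. Promoter windows of 8 of the 10 genes were in the sequence table (*Fst* and *Fbxo32* were not). Searched on both strands from 250 bases before to 50 after the TSS, *Trim63* was the only 1 of these 8 with GTAAACA, which 3.65% of 32851 promoters held, and CAGCTG was also in *Igf1* (16.3% of promoters). None of the 8 held a match to MEF2 (3.19%), the estrogen-related receptor (ERR) site TCAAGGTCA (0.423%), the SMAD site GTCTAGAC (0.213%) or the glucocorticoid receptor site, read as AGAACA and TGTNCT separated by 3 bases (0.0396%). A match describes letters, not binding.

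At *Fbxo32* the peak over the TSS spanned 7.20 to 26.5 kb. Its relative H3K27ac levels were 0.56 and 0.57 in EDL, 0.57 and 0.04 in Quad, 0.26 and 0.17 in Sol, 0.32 and 0.22 in Dia, 0.33 and 0.46 in Wt, and 0.44 and 0.40 in mTg. Both Sed libraries (−0.16 and −0.34) and both Ex libraries (−0.16 and −0.19) were lower than all of these. In Sed the peak ran for 26.5 kb and in Ex for 7.20 kb. *Fbxo30* had a narrow peak of 2.18 to 3.997 kb that ranked among the strongest of every list, with a median percentile of 98.8. Its relative levels ran from 0.42 in 1 Sed library to 1.24 in 1 Ex library, with the Ex libraries above those of the other groups. The peak was narrowest in Ex (2.18 kb) and widest in Sed (3.997 kb), so these levels per kb cover different spans.

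The start sites of *Foxo1* and *Foxo3* were strongly acetylated in every group. The *Foxo3* TSS peak had a median percentile of 98.7, and its relative level was 0.87 and 0.82 in EDL, 0.81 and 1.00 in Quad, 0.70 and 0.62 in Sol, 1.17 and 1.20 in Dia, 0.95 and 0.74 in Sed, 0.69 and 0.53 in Ex, 0.79 and 0.89 in Wt, and 1.31 and 1.10 in mTg. Dia and mTg were the highest, and Sol and Ex the lowest. The peak was 4.55 kb wide in Dia and 3.99 kb in mTg, against 5.62 kb in Sol and 6.06 kb in Ex. In the other groups it was 5.61 kb (EDL), 4.37 kb (Quad), 4.91 kb (Sed) and 5.30 kb (Wt). These levels per kb thus average over different spans, and the part of width in their order was not tested. The *Foxo1* TSS peak (median percentile 96.1) ran from 0.20 and 0.66 in Wt to 0.85 and 0.76 in Sol, and neighbouring groups overlapped. H3K4me2 at the *Foxo3* TSS was nearly constant, with group means from 0.59 in Sed to 0.84 in Dia.

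*Klf15* combined a wide TSS domain (6.09 to 17.2 kb of H3K27ac) with distal peaks. Its relative level was 0.76 and 0.45 in EDL, 0.28 and 0.62 in Quad, 1.12 and 0.94 in Sol, 0.71 and 0.36 in Dia, 0.54 and 0.00 in Sed, −0.03 and −0.09 in Ex, −0.16 and 0.40 in Wt, and 0.43 and 0.26 in mTg. Both Sol libraries were above every other library, over a narrower span. The next Sol peak downstream, 9.3 kb wide, had only −0.004 and −0.23, and in EDL, Quad and Dia a single peak covered both parts. Ex was just below Sed and overlapped Wt, over 7.31 kb against 13.9 kb in Sed and 15.9 kb in Wt. The region with the strongest differences between muscles lay 33.8 kb downstream of its TSS and is given with the pairs of muscles.

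*Mstn* showed the sharpest contrast among muscles. The H3K27ac peak over the gene had relative levels of −0.09 and −0.24 in EDL and −0.05 and −0.20 in Quad, −0.87 and −0.86 in Dia, and −2.53 and −2.74 in Sol. The 4 EDL and Quad libraries were above both Dia libraries, and the Sol libraries were below all others by a wide margin. In Sol this was the only *Mstn* peak, it was 1.345 kb wide against 3.45 to 4.08 kb in the other muscles, and its percentile was 2.44. H3K4me2 over the gene followed the same order, with −0.39 and −0.27 in EDL, −0.08 and −0.23 in Quad, −0.80 and −0.62 in Dia, and −1.81 and −2.08 in Sol. In the remaining quadriceps groups H3K27ac was 0.20 and −0.47 in Sed, −0.69 and −1.08 in Ex, −0.55 and −0.26 in Wt, and −0.44 and −0.33 in mTg, so Ex was below the other 3.

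An intergenic region −23.6 kb from the *Mstn* TSS was acetylated in 6 of 8 groups, with relative levels of −0.02 and −0.03 in EDL, −0.59 and −0.13 in Quad, −0.95 and −0.86 in Dia, −0.19 and −0.55 in Sed, −0.28 and −0.07 in Wt, and −0.30 and −0.44 in mTg. No H3K27ac peak was called there in Sol or Ex. It held a peak of ATAC-seq (transposase-accessible chromatin) of control quadriceps whose signal was at the 94.0 percentile of that list. The 300 bases centered on this accessible site (chr1:53037613-53037912) and the 250 bases upstream of the *Mstn* TSS (chr1:53061390-53061639; both RefSeq, mm10/GRCm38.p6, plus strand, 5′ to 3′) are shown because they are the distal site called in all groups but Sol and Ex, and the start of the gene whose peak was weakest in Sol. Capitals mark a match to the MEF2 motif, the site of a family of muscle transcription factors.
Mstn −23.6 kb site: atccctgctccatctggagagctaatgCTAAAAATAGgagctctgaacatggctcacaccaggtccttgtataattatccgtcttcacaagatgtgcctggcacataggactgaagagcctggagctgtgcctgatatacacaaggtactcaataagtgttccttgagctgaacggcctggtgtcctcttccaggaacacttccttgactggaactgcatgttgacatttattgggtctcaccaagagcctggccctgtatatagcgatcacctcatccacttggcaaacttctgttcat
Mstn promoter: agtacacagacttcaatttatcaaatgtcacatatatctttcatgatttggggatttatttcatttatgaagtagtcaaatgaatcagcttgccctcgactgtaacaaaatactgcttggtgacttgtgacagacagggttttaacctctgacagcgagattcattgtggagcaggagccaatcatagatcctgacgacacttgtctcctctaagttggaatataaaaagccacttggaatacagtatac
The distal region held 2 MEF2 matches in 2466 bases. At least 1 match was in 32.7% of windows of this length centered on Sed H3K27ac peaks. The match shown lies just outside the accessible interval itself. The promoter stretch held none of the motifs searched.

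**Figure D2:**
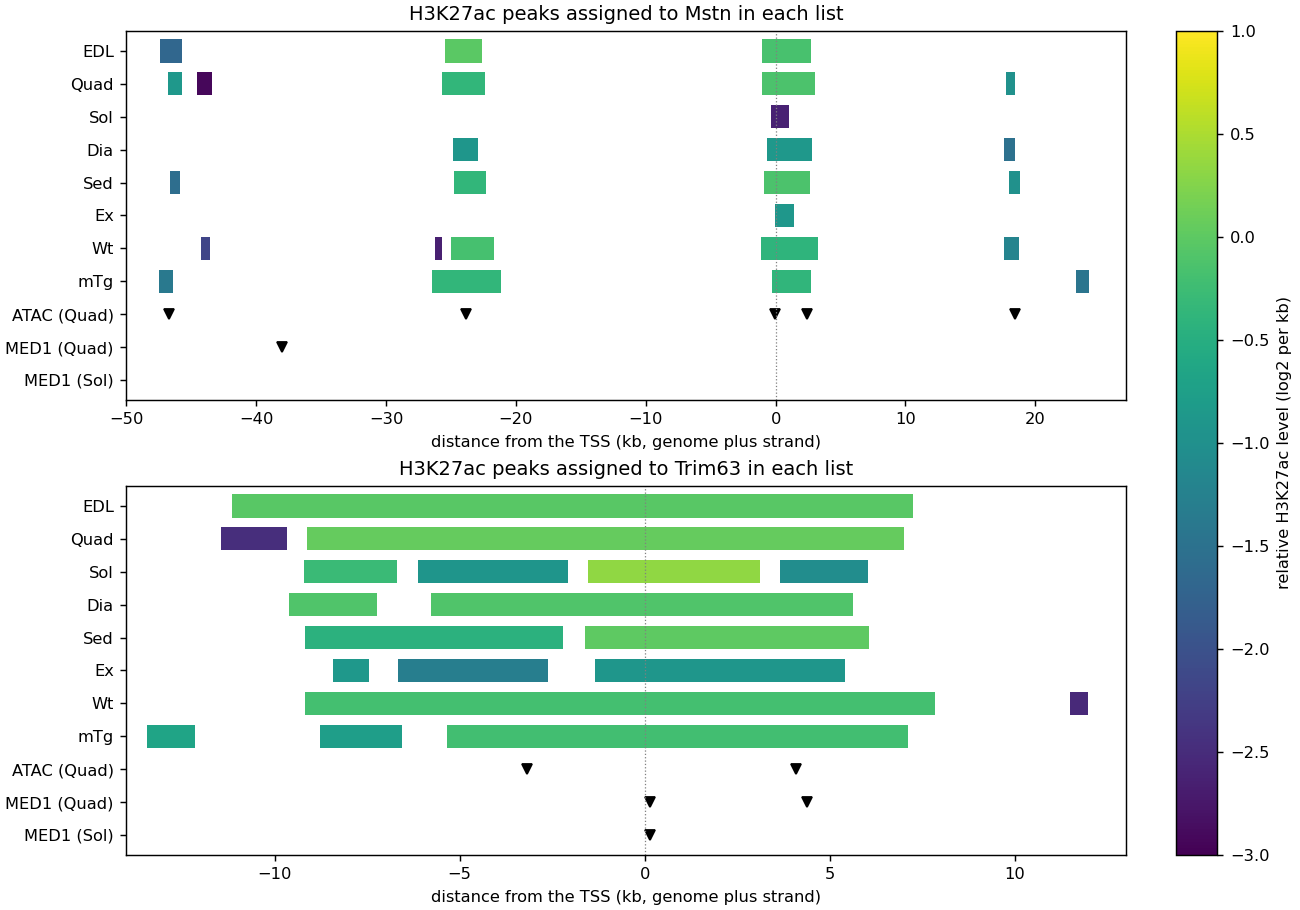
H3K27ac peaks assigned to *Mstn* (top) and *Trim63* (bottom) in each group, drawn by distance from the TSS in kb and colored by relative level (log2 per kb), with black triangles for ATAC peaks (Quad) and MED1 peaks (Quad, Sol). At *Mstn*, Sol holds 1 weak peak (mean −2.64) and Ex lacks the −23.6 kb peak, and at *Trim63* MED1 sits at the TSS in Quad and Sol.

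The receptor gene *Acvr2b* had a narrow TSS peak with relative H3K27ac of −0.08 and 0.30 in EDL, −0.68 and −0.59 in Quad, −0.45 and −0.09 in Sol, −0.30 and 0.31 in Dia, 0.28 and 0.79 in Sed, 0.09 and 0.01 in Ex, −0.05 and −0.01 in Wt, and 0.08 and 0.06 in mTg. Quad was lowest in both libraries. The strongest *Acvr2b* region of Quad was not the TSS but the intron 7.15 kb downstream, with relative levels of −0.04 and 0.56 in EDL, 0.38 and 0.32 in Quad, −0.08 and 0.09 in Sol, −0.07 and 0.61 in Dia, 0.31 and 0.44 in Sed, −0.52 and −0.51 in Ex, 0.26 and 0.10 in Wt, and 0.44 and 0.32 in mTg. Both Ex libraries were below all the others. The myostatin antagonist gene *Fst* had the weakest start site of the 10 for H3K27ac, at a median percentile of 46.6, with group means between −1.77 in EDL and −0.81 in Ex. Its H3K4me2 was higher ranked, at a median percentile of 76.9.

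*Igf1* acetylation at the TSS was intermediate (median percentile 71.7). Its relative level was −0.91 and −1.07 in EDL, −0.65 and −0.58 in Quad, −0.70 and −0.29 in Sol, −1.24 and −1.48 in Dia, −0.60 and 0.55 in Sed, −0.48 and −0.54 in Ex, −0.85 and −0.83 in Wt, and −1.56 and −1.35 in mTg. mTg was below Wt in both libraries, and the 2 Sed libraries stood far apart. H3K4me2 at *Igf1* was 0.41 and 0.45 in Ex and 0.32 and 0.43 in Sed, above the 6 other groups, and was lowest in Wt at −0.70 and −0.55.

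**Figure D3:**
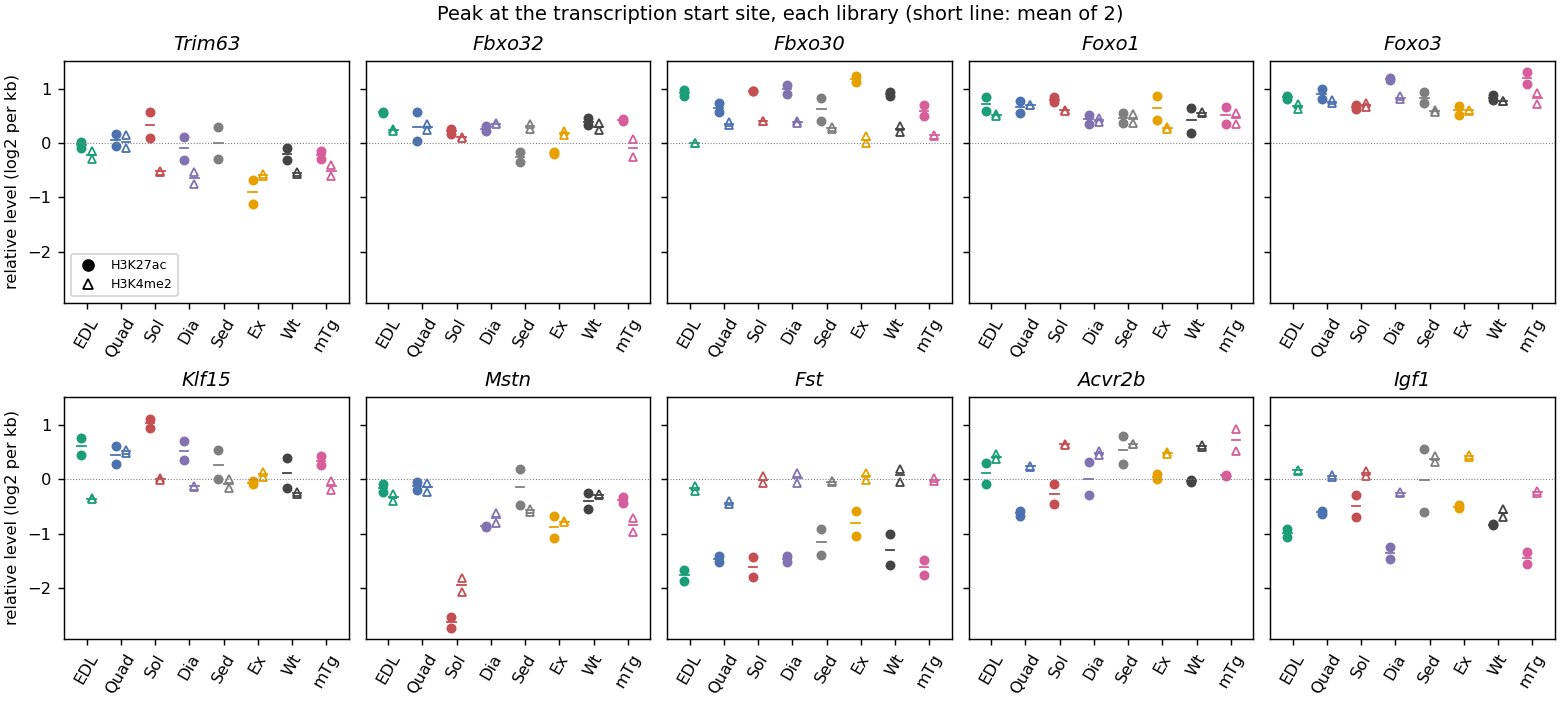
Relative level (log2 per kb, 0 being the median shared region) of the peak at the TSS of each of the 10 genes in each library of the 8 groups, with filled circles for H3K27ac, open triangles for H3K4me2 and short lines for means of 2. *Mstn* in Sol (−2.64 for H3K27ac and −1.95 for H3K4me2) stands apart, while *Foxo1*, *Foxo3* and *Fbxo30* are above 0 in every group.

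To ask which regions of these genes differ between muscles, each peak was paired with the 1 peak of the other list that covered at least 50% of it and was covered by it to the same extent, and the difference in log2 level per kb was centered on its median over all shared regions. To pass the 2-fold limit, the centered difference had to exceed 2-fold and the replicates of the groups had to be apart once each library was centered on its own median. Few regions of the 10 genes passed. For H3K27ac the count was 1 of 31 between EDL and Quad (0.643% of all shared regions), 0 of 24 between EDL and Sol (2.88%), 0 of 24 between EDL and Dia (3.1%), 0 of 22 between Quad and Sol (3.74%), 1 of 25 between Quad and Dia (4.27%) and 1 of 18 between Sol and Dia (1.65%). For H3K4me2 it was 1 of 24 (0.457%), 0 of 20 (0.626%), 0 of 19 (0.678%), 0 of 24 (1.89%), 1 of 23 (1.58%) and 1 of 20 (0.439%), in the same order. Summed over the 6 pairs, the H3K27ac count of 3 became 5 without EDL replicate 1 or Sol replicate 2. The members' medians were between −0.25 and 0.16 for H3K27ac, so the genes as a group were close to the median shared region.

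The regions that passed belonged to *Foxo3*, *Klf15*, *Foxo1* and *Mstn*. At *Foxo3* the region 105 kb downstream of the TSS had H3K27ac log2 levels per kb of 5.45 and 5.37 in EDL against 5.95 and 6.27 in Quad, a centered difference of −1.04. At *Klf15*, 29.9 kb downstream, levels were 6.18 and 6.39 in Quad against 5.22 and 5.87 in Dia (1.20). Both regions were higher in Quad.

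The *Klf15* region 33.8 kb downstream had H3K4me2 of 6.27 and 6.33 in Quad against 4.59 and 4.75 in Dia (1.75), and the 1 at −11.6 kb had 6.57 and 6.49 in EDL against 7.19 and 7.09 in Quad (−1.03). At *Foxo1*, 139 kb downstream, H3K27ac was 6.49 and 5.81 in Sol against 5.56 and 4.93 in Dia (1.33). H3K4me2 over *Mstn* was 5.06 and 4.83 in Sol against 6.18 and 6.36 in Dia (−1.26). Here Quad was the higher muscle at both *Klf15* regions, and Sol was above Dia at *Foxo1* and below it at *Mstn*.

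Because the *Mstn* peak in Sol was so narrow, it was not matched for H3K27ac at 50% overlap. With the best match at any overlap, a choice made after seeing the data, H3K27ac over *Mstn* was 2.66 higher in EDL than in Sol, 2.61 higher in Quad than in Sol, and −1.88 in Sol against Dia. H3K4me2 gave 1.68, 1.81 and −1.25. In each of these comparisons the replicates did not overlap, and with this matching 4.43%, 5.92% and 2.53% of all shared H3K27ac regions passed in these 3 pairs. The same matching gave *Fst* 11.5 kb downstream of its TSS lower in Quad than in Sol (−1.58), from levels of 5.27 and 5.02 against 6.84 and 6.74. Marker genes were compared at 50% overlap only, so their medians are not on the matching used here for *Mstn*. Regions of the myofiber marker genes had a median 0.21 higher in EDL than in Sol over 21 regions. Their median was 0.30 higher in Quad than in Sol over 18, and −0.24 in Sol against Dia over 22 (18 lower). Regions of endothelial markers had medians of −0.21 (16 of 22 lower in EDL than in Sol), −0.27 (15 of 20 lower in Quad than in Sol) and 0.36 (14 of 19 higher in Sol than in Dia). Macrophage marker regions had −0.39 (4 of 4 lower), −0.35 (4 of 5 lower) and 0.16 (4 of 4 higher), adipocyte marker regions −0.27, −0.27 and 0.52, satellite cell marker regions −0.15, −0.44 and 0.23, and fibroblast marker regions −0.20, 0.08 and −0.15, in the same order. The part of these markers in the *Mstn* difference was not tested.

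The same measure among the untreated quadriceps groups shows what separates wild-type quadriceps from different sets of mice. For H3K27ac, 1 of 26 regions of the 10 genes differed between Quad and Sed (1.07% of all), 0 of 33 between Quad and Wt (1.36%) and 0 of 24 between Sed and Wt (0.495%). The 1 was the *Acvr2b* TSS, with 6.33 and 6.41 in Quad against 7.38 and 8.04 in Sed (−1.20). For H3K4me2 the counts were 0 of 21 (0.738%), 2 of 29 (2.7%) and 0 of 27 (1.78%). The 2 were *Trim63* at −3.5 kb (1.11) and *Klf15* 33.8 kb downstream (1.16), both higher in Quad than in Wt. Differences of this size thus occurred between untreated groups too.

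In exercised quadriceps, H3K27ac was lower over *Trim63*, *Acvr2b* and *Mstn*, with replicates of Ex and Sed apart. *Klf15* was lower too, but its TSS libraries nearly met (0.54 and 0.00 in Sed, −0.03 and −0.09 in Ex). No *Klf15* region was in the authors' list of lower regions. *Fbxo32* was lower in an intron but not clearly at its TSS. There the Sed peak ran for 26.5 kb and the Ex peak for 7.20 kb, so their levels per kb cannot show whether the TSS changed. H3K27ac per kb was no lower at the start sites of *Fbxo30* and *Foxo1* or at *Fst*. The Ex peak was narrower than the Sed peak at *Fbxo30* (2.18 against 3.997 kb) and *Foxo1* (5.30 against 6.88 kb). At the *Fst* start site the Ex peak was wider (5.66 against 3.51 kb), so these levels do not cover the same spans. *Igf1* was lower on average, but its Sed libraries were so far apart that they overlapped those of Ex. Of 19 matched H3K27ac regions of the 10 genes, 11 were lower in Ex than in Sed and 8 higher, with a median of −0.45, where the median over all 18430 shared regions is 0 by construction. The 11 were all matched regions of *Trim63*, *Klf15*, *Acvr2b* and *Igf1* and the TSS of *Foxo3*. The 8 were matched regions of *Fbxo30*, *Foxo1* and *Fst* and 3 distal regions of *Foxo3*. *Mstn* and *Fbxo32* had no matched region, their Ex peaks being missing or much narrower. In 13 of the 19 regions the replicates did not overlap, against 56.7% of all shared regions.

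A single region passed the 2-fold limit, against 3.17% of all shared regions. It was *Trim63* 2.0 kb downstream of the TSS, with H3K27ac log2 levels per kb of 6.45 and 5.69 in Ex against 7.41 and 6.97 in Sed (−1.02). The upstream part of the *Trim63* domain, at −4.65 kb, differed by −0.96 and the *Acvr2b* intron by −0.999, both with replicates apart. *Klf15* differed by −0.79 at −11.5 kb, by −0.45 at 2.65 kb downstream and by −0.57 at 13.7 kb downstream. The TSS of *Fbxo30* was 0.45 higher per kb in Ex, with 8.37 and 7.93 against 7.53 and 8.09. Its peak was 2.18 kb wide in Ex and 3.997 kb in Sed, so this difference depends on the called width. Without Ex replicate 2 the count was 0, without Sed replicate 1 it was 2, and without either of the other libraries 3. For H3K4me2, 0 of 23 regions passed (0.0925% of all), and the median of the 10 genes was −0.06.

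**Figure D4:**
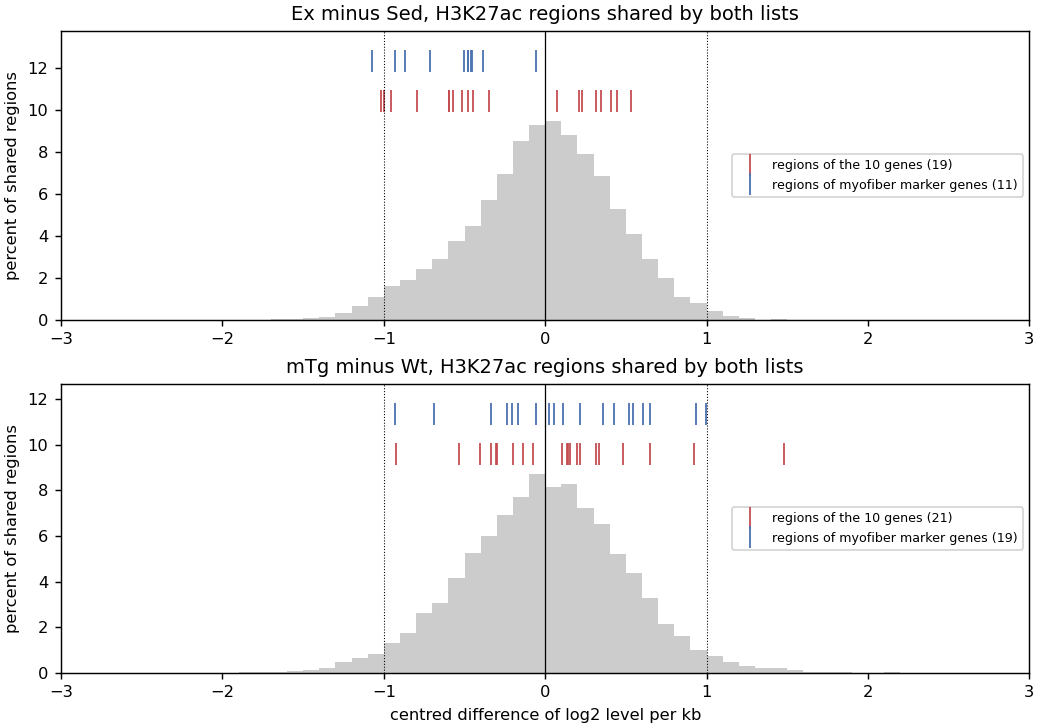
Centered difference of log2 H3K27ac level per kb between Ex and Sed (top) and mTg and Wt (bottom), with grey bars for the percent of all shared regions in each bin, red ticks for matched regions of the 10 genes and blue ticks for regions of myofiber marker genes. In Ex all 11 myofiber regions lie below 0, and the 10 genes have 11 of 19 below 0.

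Myofiber markers moved the same way in Ex. All 11 matched H3K27ac regions of the 10 myofiber marker genes (*Ckm*, *Acta1*, *Ttn*, *Myh4* and others) were lower in Ex, with a median of −0.48. Those of macrophage markers were higher in 6 of 6 regions (median 0.49), those of fibroblast or fibro-adipogenic progenitor markers in 12 of 17 (median 0.30), those of satellite cell markers in 2 of 2 (0.45) and those of endothelial markers in 9 of 15 (0.03), and those of adipocyte markers in 1 of 5 (−0.03). Myofiber peaks made up 0.224 and 0.184% of the summed level of all peaks in Sed and 0.103 and 0.0847% in Ex, over 155 and 85.7 kb of called peaks with mean relative levels of −0.93 and −1.15. Fibroblast marker peaks made up 0.0506 and 0.0596% in Sed and 0.108 and 0.130% in Ex, over 59.8 and 101 kb (means −1.17 and −1.18). The 10 genes themselves made up 0.210 and 0.200% in Sed and 0.164 and 0.148% in Ex over 149 and 123 kb (means −0.86 and −1.09). The part of these shifts in the results for the 10 genes was not tested. The study measured RNA of immune, vascular, satellite cell and myogenic markers by qPCR. From these it reported no change in the cell composition of Ex muscle.

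The authors' differential lists hold levels of the 4 libraries of a comparison normalized together. Regions listed as lower in Ex numbered 6 in 5 of the 10 genes, *Acvr2b*, *Fbxo32*, *Foxo1*, *Mstn* and *Trim63*, and 0 were listed as higher. Among all 14815 genes with an H3K27ac peak in Sed or Ex, 10.6% had a region listed as lower and 2.34% as higher. Several of the 10 genes have more peaks than most genes, so the share was also counted by peaks. There, 6 of 39 Sed peaks of the 10 genes (15.4%) overlapped the hypoacetylated list, against 6.71% of all Sed peaks.

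The *Acvr2b* region, in intron 1 of 10 (chr9:119407062-119411589), had log2 levels of 9.48 and 9.55 in Sed and 8.56 and 8.54 in Ex, a difference of −0.96. The region −23.6 kb from *Mstn* (chr1:53036845-53039310, intergenic) had 7.95 and 7.67 in Sed and 7.14 and 6.58 in Ex (−0.95), and the 1 over the gene itself (chr1:53060720-53064291, centered in intron 1 of 2) had 8.90 and 8.38 in Sed and 7.86 and 7.57 in Ex (−0.93). At these 3 regions both Sed libraries were above both Ex libraries.

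The *Fbxo32* region (chr15:58186196-58189319, intron 6 of 8) had 7.40 and 7.52 in Sed and 6.60 and 6.50 in Ex (−0.91). The *Trim63* region (chr4:134313498-134321178, over the TSS and first introns) had 10.2 and 9.69 in Sed and 9.31 and 8.90 in Ex (−0.83), and the *Foxo1* region 31.8 kb downstream (chr3:52299237-52301100, intron 1 of 2) had 6.87 and 6.36 in Sed and 6.04 and 6.02 in Ex (−0.59). Replicates were separated here too, most narrowly at *Foxo1*.

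In limma's moderated test over the 2280 regions of the list, two-sided with Benjamini-Hochberg adjustment, the SE of each difference was 0.215. The adjusted p was 9.21e-05 at *Acvr2b*, 0.000105 and 0.000127 at the 2 *Mstn* regions, 0.000161 at *Fbxo32*, 0.000362 at *Trim63* and 0.00741 at *Foxo1*. This SE was the same at each of these regions, so the p-value follows the size of the difference, not the spread of a region's own replicates. The authors chose these regions for differing, and 99.7% of the list passes this test, so it is not independent evidence. The list's median difference was −0.76, so *Acvr2b*, *Mstn*, *Fbxo32* and *Trim63* were beyond the typical listed region and *Foxo1* short of it. Without 1 library, *Foxo1* lost its call in 3 of 4 cases (limma adjusted p 0.0574 without Ex replicate 1, 0.0730 without Ex replicate 2 and 0.127 without Sed replicate 1), and *Trim63* in 1 (0.0589 without Ex replicate 2). The *Foxo1* difference was −0.60, −0.58 and −0.34 in these cases and −0.84 without Sed replicate 2, so its size rested on the Sed libraries.

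**Figure D5:**
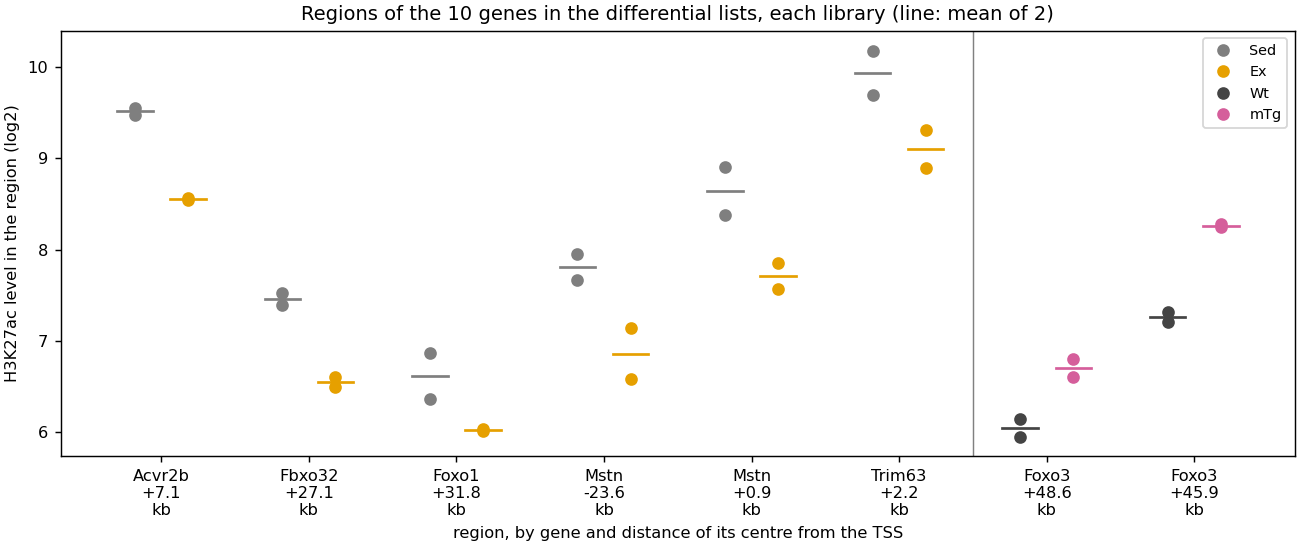
H3K27ac log2 level in each library of the 6 regions listed as hypoacetylated in Ex against Sed (left of the line) and the 2 *Foxo3* regions listed as hyperacetylated in mTg against Wt (right), with lines for means of 2. Every Ex library lies below both Sed libraries and every mTg library above both Wt libraries.

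At *Foxo1* an ATAC peak of control quadriceps (chr3:52301107-52301301) began just past the end of the listed region, inside the overlapping Quad H3K27ac peak. Of the 6 regions, the 5 others held an ATAC peak. Its signal was at percentile 89.4 in *Acvr2b*, 94.0 in the distal *Mstn* region, 63.5 in *Trim63* and 54.6 in *Fbxo32*, and the 2 peaks in the region over *Mstn* itself were at 32.9 and 24.6. At *Trim63*, a MED1 peak of Quad lay beside the accessible site, 4386 bases from the TSS, in addition to the 1 at the TSS. The 300 bases centered on the ATAC peaks of *Trim63* (chr4:134319052-134319351) and *Acvr2b* (chr9:119409318-119409617), and around an ERR match in the *Foxo1* region (chr3:52299810-52300109), are shown as the sequences of the acetylated sites that were lower in Ex (RefSeq, mm10/GRCm38.p6, plus strand, 5′ to 3′). Capitals mark matches to MEF2 (*Trim63* and *Acvr2b*), the E-box CAGCTG (the second match of *Acvr2b*) and the ERR site TCAAGGTCA, which is on the minus strand of *Foxo1* and so reads TGACCTTGA.
Trim63 accessible site: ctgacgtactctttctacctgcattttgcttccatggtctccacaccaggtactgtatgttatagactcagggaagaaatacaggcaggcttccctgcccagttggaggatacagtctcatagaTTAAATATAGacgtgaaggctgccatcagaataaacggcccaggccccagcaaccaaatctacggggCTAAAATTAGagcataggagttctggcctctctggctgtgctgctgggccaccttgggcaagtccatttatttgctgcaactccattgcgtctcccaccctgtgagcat
Acvr2b accessible site: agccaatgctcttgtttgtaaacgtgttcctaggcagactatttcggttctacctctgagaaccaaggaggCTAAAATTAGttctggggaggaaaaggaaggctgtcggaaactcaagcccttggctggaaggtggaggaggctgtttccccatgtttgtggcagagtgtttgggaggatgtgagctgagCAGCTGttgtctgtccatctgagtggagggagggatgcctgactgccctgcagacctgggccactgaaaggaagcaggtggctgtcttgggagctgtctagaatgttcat
Foxo1 ERR match: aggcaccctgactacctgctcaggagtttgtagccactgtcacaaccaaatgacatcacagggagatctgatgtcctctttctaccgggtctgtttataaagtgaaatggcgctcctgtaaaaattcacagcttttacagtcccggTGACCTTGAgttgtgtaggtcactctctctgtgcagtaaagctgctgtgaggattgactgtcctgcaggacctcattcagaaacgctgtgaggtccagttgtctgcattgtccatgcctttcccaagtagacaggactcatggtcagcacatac
Both MEF2 matches of the *Trim63* region fell inside its ATAC peak, and 1 of 2 did in *Acvr2b*. Over the whole regions, 70.1% and 51.8% of Sed windows of the same lengths held at least 1 MEF2 match, and 5.21% held the ERR site at the length of the *Foxo1* region. The SMAD and glucocorticoid receptor sites had no match in any of the 8 listed regions.

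Other genes of the same pathways, from lists drawn up by function, had more regions listed as lower than higher in Ex, as did all genes, of which 10.6% had a lower and 2.34% a higher region. Across all their matched regions, however, the medians were close to 0, at −0.08 over 53 regions of FoxO, ubiquitin ligase and autophagy genes, −0.04 over 46 of glucocorticoid and KLF15 targets, 0.07 over 47 of IGF, insulin, AKT and mTOR genes, 0.08 over 39 of activin, myostatin and TGF-beta genes, and 0.18 over 13 of BMP genes. Of 28 further FoxO, ubiquitin ligase and autophagy genes with a peak, 7 had a region listed as lower and 0 as higher. The values were −0.95 for *Trim54* and −0.88 for *Trim55*, close relatives of *Trim63*, −0.90 for *Bnip3* and −0.85 for *Map1lc3a*, the last pair acting in autophagy. Of 16 glucocorticoid and KLF15 targets with a peak, 5 had a lower and 0 a higher region. Among them were *Pdk4* (−0.92, 51.5 kb downstream), a brake on glucose oxidation, and the kinase gene *Sgk1* (−0.88, at −4.3 kb). Of 18 activin, myostatin and TGF-beta genes with a peak, 3 had a lower and 0 a higher region, led by the receptors *Acvr2a* (−0.99, from a region very far from its TSS) and *Tgfbr1* (−0.93).

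Of 21 IGF, insulin, AKT and mTOR genes with a peak, 4 had a lower and 1 a higher region, *Rictor* (−1.21), a subunit of mTOR complex 2, being the lowest. Of 10 BMP genes with a peak, 2 had a lower region and 0 a higher, *Nog* at −0.85. Each named gene passed limma's test within the list, with the limit given above on how the list was made. Of the 10 myofiber marker genes, 5 (*Actn2*, *Des*, *Myh1*, *Myh4* and *Ttn*) had a region listed as lower. Of the marker genes of other cell types, 1 fibroblast gene (*Dpt*) did.

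In mTg quadriceps the one gene of the 10 with listed regions was *Foxo3*. A region in its intron 2 of 3 (chr10:42229048-42232557), 45.9 kb downstream of the TSS, had log2 H3K27ac levels of 7.21 and 7.32 in Wt and 8.28 and 8.25 in mTg. An adjacent one (chr10:42227483-42228810), 48.6 kb downstream, had 5.95 and 6.14 in Wt and 6.80 and 6.61 in mTg. Both mTg libraries were above both Wt libraries at each.

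The differences were 1.00 (SE 0.123, limma adjusted p = 1.19e-07) and 0.66 (SE 0.128, 4.11e-05), and the list median was 0.74. All 1828 regions of the list (100%) pass this test. Listed as lower in mTg were 0 regions of the 10 genes. Of 15286 genes with a peak in either group, 9.22% had a region listed as higher and 4.38% as lower, and 2 of 45 mTg peaks of the 10 genes (4.44%) overlapped the hyperacetylated list, against 4.96% of all. The share of the 10 genes was thus near the background.

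Between the Wt and mTg lists, 1 of 21 regions of the 10 genes was over 2-fold apart (4.64% of all shared regions). It was the same *Foxo3* intron, with H3K27ac log2 levels per kb of 6.60 and 6.48 in mTg against 5.09 and 5.17 in Wt, a centered difference of 1.48. Leaving out any 1 library gave a count of 2. The *Foxo3* TSS was 0.48 higher per kb with replicates apart, over a narrower peak (3.99 kb in mTg against 5.30 kb in Wt). *Fst*, 11.7 kb downstream of its TSS, was 0.92 higher (5.83 and 5.70 against 4.83 and 4.997), and *Fbxo32*, 28.0 kb downstream, was −0.92 (4.49 and 4.87 against 5.43 and 5.90), both short of 2-fold. *Trim63* (0.10) and *Mstn* (0.13 over the gene and −0.08 at the distal region) overlapped between mTg and Wt with this centering. On the relative scale given above, both mTg libraries of the distal *Mstn* region were below both Wt libraries. For H3K4me2, 0 of 15 regions passed (0.724% of all), with a median of 0.02.

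The *Foxo3* intron was marked in every muscle. The relative level of the peak overlapping the region 45.9 kb downstream was −0.12 and −0.05 in mTg, −0.58 and −0.66 in Dia, −0.69 and −0.81 in Sol, −1.03 and −0.66 in Quad, −1.02 and −1.23 in EDL, −1.28 and −1.55 in Ex, −1.19 and −1.78 in Sed, and −1.50 and −1.40 in Wt. mTg was above all others, and peaks of EDL, Quad and Sed were wider and overlapped both listed regions. The adjacent region held an ATAC peak of control quadriceps (signal percentile 44.9) and the stronger one did not. An ERR site was in neither, where 4.15% and 10.4% of mTg windows of the same lengths held one.

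Among the pathway lists in mTg, genes with listed regions went both ways. Over all genes with a peak, 9.22% had a higher and 4.38% a lower region. A higher region was listed for 4 and a lower one for 2 of 30 FoxO, ubiquitin ligase and autophagy genes with a peak. The counts were 2 and 1 of 21 IGF, insulin, AKT and mTOR genes, 2 and 3 of 17 activin, myostatin and TGF-beta genes, 3 and 0 of 10 BMP genes, and 0 and 1 of 16 glucocorticoid and KLF15 targets. *Pik3r1*, a regulatory subunit of phosphoinositide 3-kinase, had the highest value (1.56), followed by the ubiquitin ligase gene *Cblb* (1.08) and *Mtor* (1.02). *Rictor* (−1.31) and *Acvr2a* (−1.03) were the lowest.

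Marker genes also moved in mTg. Matched regions of fibroblast markers were lower in 9 of 10 (median −0.93), of macrophage markers in 7 of 8 (−0.34) and of endothelial markers in 6 of 12 (−0.11), and of myofiber markers higher in 12 of 19 (0.11), of adipocyte markers in 3 of 5 (0.06) and of satellite cell markers in 1 of 2 (0.22). Their part in the *Foxo3* result was not tested. By qPCR, a measure of RNA and not of acetylation, the study reported higher macrophage and vascular markers in mTg muscle.

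Accessible chromatin and coactivator peaks were set beside the acetylated regions. In Quad, 28 of 54 H3K27ac regions of the 10 genes (51.9%) held an ATAC peak, against 57.2% of all, with *Fst* the one gene without. MED1 overlapped 5 of 54 in Quad (9.26%, against 3.76% of all), 2 of 48 in EDL (4.17% against 1.12%), 5 of 41 in Sol (12.2% against 5.34%) and 2 of 41 in Dia (4.88% against 4.16%). Within 1 kb of the TSS, MED1 was at *Trim63* in all 4 muscles, at *Klf15* in EDL, Quad and Sol, at *Fbxo30* in Quad, Sol and Dia, at *Fbxo32* and *Foxo1* in Quad, and at *Foxo3* in Sol. No MED1 peak was within 1 kb of the TSS of *Mstn*, *Acvr2b*, *Fst* or *Igf1*. A peak of the transcription factor NFAT overlapped 1 of 41 regions in Sol (*Trim63*, 2.44% against 3.02% of all) and 0 of 54 in Quad (0.0464% of all). Each MED1 or NFAT list came from 1 library per muscle, so these overlaps have no replicate check.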

How the data were processed

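ChIP-seq of H3K27ac and H3K4me2 was analysed in 8 groups of 2 replicates. According to the study's methods and the submitters' processing notes, the authors aligned reads to mm10 with Bowtie (1.2 in the submitters' notes, an earlier release in the methods) and called peaks with HOMER over both replicates against input, at 2-fold and an FDR of 0.05. The deposited tag columns hold log2 levels, taken as a regularized logarithm computed within each list. The authors' p-values and peak scores were used to filter or rank peaks, and the deposited ATAC signal to rank ATAC peaks. The log2 enrichment over input served only as a filter. Of the authors' comparisons between conditions, the adjusted p served as a stricter filter on the differential lists, and their other result columns were not used. Further ATAC and footprint intervals of another genome build were not used here.

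The members and gene lists were chosen with earlier results of these data known, and of each member the TSS region, the strongest region of Quad, every listed region and every region past the 2-fold limit are described. Of genes in the pathway lists, those with a listed region and the largest limma differences were named, at most 10 per comparison. Because the files held levels and not counts, limma 3.58.1 (R 4.3.3) within the 4 differential lists replaced a count test, and no test was run between lists. Matching and limma were tested on simulated data. Python 3.11.15, pandas 2.3.3, numpy 2.4.6 and scipy 1.17.1 did the rest. Alternatives were the peak threshold, overlap, width scaling, centering, distance and leaving out a library. Sequences are from RefSeq (GRCm38.p6). Nothing states whether replicates of a group came from separate days, so spread between them may be partly technical.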

Additional observations from a re-analysis of the deposited data

Results flagged for a closer look

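At the *Acvr2b* intron 7.15 kb downstream of the TSS, the relative H3K27ac level was lower in Ex than in Sed and higher in mTg than in Wt. This contrast in direction is why the region is listed here. The Ex libraries were −0.52 and −0.51 and the Sed libraries 0.31 and 0.44, a difference of −0.89. The mTg libraries were 0.44 and 0.32 and the Wt libraries 0.26 and 0.10, a difference of 0.20. Within each comparison the replicates did not overlap. By the matching above, this held for 56.7% (Ex and Sed) and 63.4% (mTg and Wt) of all shared H3K27ac regions. The mTg difference was smaller than the median gap between replicates over all H3K27ac peaks, 0.235 in mTg and 0.253 in Wt. The region was in neither of the authors' mTg lists, so a change in mTg is not established. The difference between the comparisons was not tested.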

How the results depend on the processing

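Peaks of the 10 genes numbered 203 (from 376) for H3K27ac and 183 (from 344) for H3K4me2 at an authors' adjusted p under 0.001. Joined regions seen in 1 group went from 31 to 69 for H3K27ac and from 29 to 78 for H3K4me2 when joined at 50% overlap, to 7 and 9 at the stricter p, and to 18 and 15 with equal numbers of top-scoring peaks. H3K27ac regions in all 8 groups went from 20 to 11 at the stricter p.

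Regions over 2-fold apart depended on the matching and on width. Over the 6 pairs of muscles the counts of 3 (H3K27ac) and 3 (H3K4me2) became 0 and 0 at 80% overlap, 21 and 8 without scaling to width, and 12 and 7 with any overlap, a choice made after seeing the data, and H3K27ac became 8 without centering. They were 3 to 5 and 3 to 4 without 1 library (5 without EDL replicate 1 or Sol replicate 2 for H3K27ac). For Ex and Sed the H3K27ac count of 1 became 5 without width, 3 without centering and 2 with any overlap. It was 0 to 3 without 1 library, being 0 without Ex replicate 2, 2 without Sed replicate 1 and 3 without either other library, and for H3K4me2 0 to 1 (1 without Sed replicate 1). For mTg and Wt it became 0 at 80% overlap, 3 without width and 2 to 2 without any 1 library. H3K4me2 there gave 1 without centering and 0 to 1 without 1 library (1 without Wt replicate 2 or mTg replicate 2). The cause of these changes was not tested beyond the settings' own construction.

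Listed regions of the 10 genes fell to 3 (from 6) in Ex and 1 (from 2) in mTg at the stricter p. Limma called 4 to 6 of the 6 Ex regions without 1 library and 2 to 2 of the mTg regions. With the replicate block, a pairing by replicate number, 6 of 6 and 2 of 2 regions were called, and no call of the 10 genes changed. The numbers mark no shared animal, and deviations of same-numbered libraries correlated across the listed regions at 0.14 and 0.11 (Ex, higher and lower lists) and −0.04 and −0.24 (mTg). With crossed numbers as the block, added after seeing the data, 2200 of 2280 Ex lower regions were called against 2274 without a block, and 1828 of 1828 mTg higher regions. No region past a limit changed direction under the alternatives run, but the median H3K27ac difference of the 10 genes between mTg and Wt went from 0.13 (12 regions higher, 9 lower) to −0.03 (15 higher, 17 lower) with any overlap. With 2 libraries a group and 6.41 M tags in the shallowest, small differences were not detectable.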
